A study of Arabidopsis thaliana with 9 samples.

Results

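Gene expression in seeds of the Arabidopsis thaliana mutants *nac25* and *nac1L* was compared directly, 12 h after imbibition began. Each loss-of-function mutant is without the function of 1 factor of the NAC family, plant-specific regulators of transcription, and the comparison asked which transcripts differed between them at that time. All genes that the authors' deposited table lists with *nac1L* as the first genotype and *nac25* as the second were taken, which gave 33557 genes among 100671 rows for 3 comparisons. Portions of 20 mg of seed were placed on plates of 0.6% agarose, and RNA was made into stranded libraries from 3 biological replicates per genotype, 6 libraries here and 9 with the Col-0 wild type (WT). No treatment beyond imbibition is named. The sources used here name neither the mutant alleles nor the number of lines behind each mutant, nor the age of the seed lots. Every fold and q-value of a single gene below is that of the authors' deposited table unless a sentence says it was centred. A positive log2 fold means a higher value in *nac25*.

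In a dry Arabidopsis seed the embryo is packed with storage proteins and oil and protected by LEA proteins and small heat shock proteins, all made during maturation under control of abscisic acid. On imbibition these transcripts decline while those for ribosomes, cell wall loosening and later photosynthesis accumulate. The embryo then has to grow through the endosperm, a living cell layer whose walls are weakened by expansins and other wall enzymes, a step promoted by gibberellin. NAC25 and NAC1L are known as factors of the germinating seed that act on the expansin gene EXPA2 in the endosperm. Whole seeds hold embryo, endosperm and the dead seed coat together, so that fewer cells of a type and less RNA per cell cannot be told apart. Seeds were collected at 1 time, so a difference in the pace of germination and a difference at the same stage cannot be told apart either.

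Neither targeted gene was tested in any of the 3 comparisons, because its reads were too few. In the authors' deposited table, the log2 fold of NAC1L (AT3G12977) was 2.72 between the mutants, *nac25* over *nac1L*, and -4.61 and -1.89 in *nac1L* and *nac25* over WT. The log2 fold of NAC25 (AT1G61110) was -1.31 between the mutants, and -2.66 and -3.97 in *nac1L* and *nac25* over WT. Each gene was thus lowest in its own mutant, and the values of both genes in the other mutant were below WT as well. None of these 6 values carries a test.

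Between the mutants, lower values in *nac25* far outnumbered higher ones. The deposited test covered 17743 genes, and 2186 of them (12.3%) had a q-value at or below 0.05, the threshold for a call here. Of these, 108 (0.609% of tested genes) were higher in *nac25* and 2078 (11.7%) were lower. Most differences were small: the median size of a called log2 fold was 0.47, 9 genes were called at least 2-fold higher and 161 at least 2-fold lower. The centre of the distribution lay below 0. The median log2 fold of tested genes was -0.20, with quartiles at -0.34 and -0.08, and 85.3% of tested genes had a fold below 0. The median was -0.07 in *nac1L* over WT and -0.27 in *nac25* over WT. When each fold was centred on that median and its p recomputed from the error that the deposited p implies, the split turned to 191 higher (1.08% of tested genes) and 33 lower calls (0.186%). With all 3 comparisons centred and adjusted together it was 482 higher (2.72%) and 276 lower (1.56%). For a p at the deposited floor of 5e-05 the implied error is an upper bound, so the centred counts of strongly changed genes are low counts by construction. This weighs on lower calls: of the 200 calls at the smallest q, 176 were lower and 24 higher, and centring moves only the lower ones toward 0. None at that floor with a fold nearer 0 than -1.2778 was called lower after centring within the comparison. A missing centred call does not place such a gene within the shift. The split of calls thus changed with where 0 was set, but its size after centring is uncertain. The medians of the main gene lists below are also given relative to the shift of -0.20, while folds of single genes are as deposited. The lists were chosen with earlier results of these data known, so their shares of calls are descriptions, not tests.

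**Figure D1:**
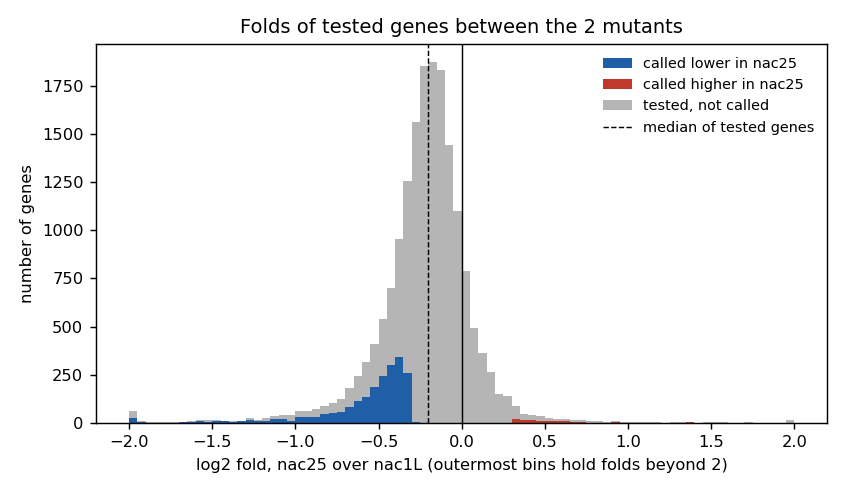
The histogram shows the number of tested genes by log2 fold of *nac25* over *nac1L*, with genes called lower in blue, called higher in red and not called in grey. The peak lies left of 0, at the dashed median of -0.20, and the 2078 blue genes outnumber the 108 red ones.

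Transcripts of small heat shock proteins, chaperones that hold unfolding proteins and accumulate in maturing and heated seeds, included many that were higher in *nac25*. Of 15 members 14 were tested, and 9 (64.3%) were called higher and 0 lower in the deposited test, against 0.609% of all tested genes for the higher calls. The list median was 0.49, or 0.69 relative to the shift. The calls covered several compartments. The plastid protein HSP25.3 (AT4G27670) had a log2 fold of 1.27 with an implied SE of 0.37 (q = 0.00409). The mitochondrial proteins HSP26.5 (AT1G52560) and HSP23.6 (AT4G25200) had log2 folds of 0.91 and 0.71, both at the smallest q in the table, 0.000463. HSP15.7 (AT5G37670), a peroxisomal protein, stood at 0.70 with the same q. Among cytosolic proteins the log2 fold was 0.71 for HSP17.7, 0.67 for HSP17.8, 0.51 for HSP17.4A, 0.46 for HSP17.6C and 0.44 for HSP17.6B. The 5 members without a call ranged from -0.49 for HSP15.4 to 0.41 for HSP17.6. After centring within the comparison 9 members were called higher, and 0 lower.

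The deposited folds over WT placed these genes differently. HSP23.6 was called higher than WT in both mutants, with a log2 fold of 1.26 in *nac1L* and 1.97 in *nac25*. HSP26.5 was likewise called in both, at 0.96 and 1.87, and HSP17.7 at 0.58 and 1.29. HSP15.7 was at 0.37 without a call in *nac1L* and called at 1.08 in *nac25*. HSP25.3 had no call against WT in either mutant, at -0.54 and 0.73. Its difference between the mutants was thus the largest of the list, although neither mutant differed from WT beyond the threshold. Reads of these closely related genes could have been divided among copies by the authors' software, so single members are less certain than the group.

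Some of the larger chaperones were also higher in *nac25*. Of 22 tested HSP70, HSP90 and HSP100 genes, 4 were called higher and 3 lower, and the median of -0.12 became 0.08 relative to the shift. The share of higher calls was far above the 0.609% of all tested genes. The share of lower calls was near the 11.7% of all tested genes. The higher ones included the stress-induced HSP70-5 (AT1G16030) at 0.64 and HSP81-1 (AT5G52640) at 0.57, both with q = 0.000463. The disaggregase CLPB1, which dissolves protein aggregates after heat, was at 0.45 (q = 0.00159), and HSP70-8 was at 0.44. The lower ones were MED37D and HSP70-3, a pair of cytosolic HSP70 genes, at -0.66 and -0.52, and SHD, the HSP90 of the endoplasmic reticulum, at -0.36. After centring none of these 3 was called lower. Against WT, HSP70-3 was called lower in both mutants, at -1.34 in *nac1L* and -1.86 in *nac25*. CLPB1 was called higher than WT in both, at 1.19 and 1.64. Of 17 tested heat shock factors, 1 was called: HSFA9 (AT5G54070), a seed-specific factor of late maturation, was higher at 0.45 (q = 0.0029). The 16 others ranged from -0.33 to 0.11, and the general activator of the heat response HSFA2 stood at 0.02.

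Several reserve transcripts were also higher in *nac25*. Of 8 storage protein genes, 5 were tested and 3 had too many reads for a test, among them the cruciferin genes CRA1 and CRC. The deposited test called 2 of the 5 higher and 0 lower: the cruciferin CRB (AT1G03880), a globulin, at 0.68 (q = 0.000463), and the 2S albumin AT2S2 (AT4G27150) at 0.49 (q = 0.000463). The albumins AT2S1, AT2S3 and AT2S4 had log2 folds of 0.27, 0.31 and 0.31 without a call. The list median of 0.31 was 0.51 relative to the shift. Of 6 oil body genes, 4 were tested and 3 were called higher: the oleosins OL2 (AT3G27660) at 0.64 and OL3 (AT5G51210) at 0.41, which coat oil bodies, and the caleosin PXG1 at 0.43. OLEO2, the fourth, was at 0.30 without a call (q = 0.15). After centring within the comparison 4 storage protein and 3 oil body genes were called higher. CRB and OL2 were not called in *nac1L* over WT, each at -0.15, and were called higher in *nac25* over WT, at 0.53 and 0.49. AT2S2 was called lower in *nac1L* over WT at -0.71 and was not called in *nac25* over WT at -0.22, so that its difference between mutants came with a lower value in *nac1L*.

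LEA transcripts, which encode hydrophilic proteins that protect the drying seed, held calls in both directions. Of 41 tested, 5 (12.2%) were called higher, against 0.609% of all tested genes. Lower calls numbered 4 (9.8%), below the 11.7% of all tested genes. The median of -0.02 was 0.18 relative to the shift. AT4G36600 was the highest called, at 0.41 (q = 0.00519). The lower ones included SAG21 at -0.69, a LEA gene also induced by oxidative stress and senescence, and the dehydrin ERD14 at -0.54. After centring within the comparison 7 were called higher and 0 lower. With q adjusted over the tests of this comparison alone, without centring, 1 was called higher and 3 lower. TIP3-2, the aquaporin of protein storage vacuoles, was the 1 aquaporin called higher among 20 tested, at 0.37 (q = 0.0189). It was not called with that adjustment over this comparison alone. The plasma membrane aquaporins PIP2-7 and PIP1-1, at -0.80 and -0.71, were among 3 called lower (15.0%, near the 11.7% of all tested genes). After centring within the comparison 0 aquaporins were called lower. Of 21 tested genes for oil breakdown, which feeds the seedling from these reserves, 0 were called higher and 2 lower, SDP1L at -0.32 and LACS6 at -0.31, and the list median of -0.19 lay near the shift.

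**Figure D2:**
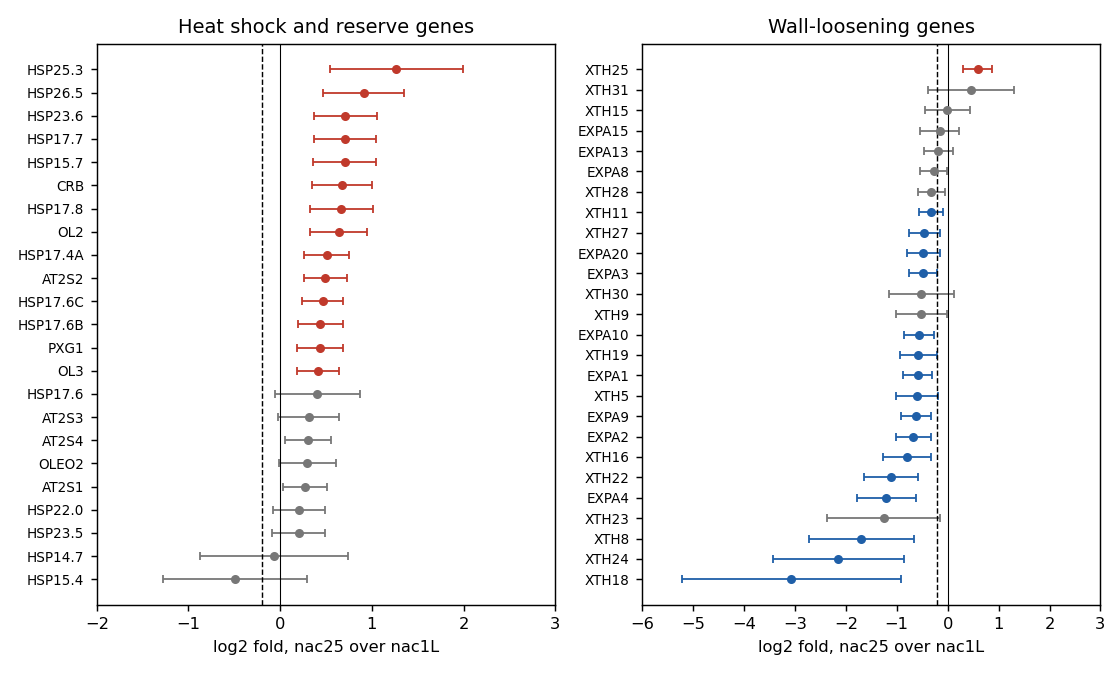
Points are log2 folds of *nac25* over *nac1L* for tested small heat shock, storage and oil body genes (left) and tested alpha-expansin and XTH genes (right). Bars are the 95% intervals that the deposited p-values imply, which are upper bounds for genes at the smallest p, and colours show calls (red higher, blue lower, grey none). Called reserve and chaperone genes lie right of 0, from 0.41 to 1.27, and the wall genes lie mostly left of the dashed median of -0.20.

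Several genes for loosening cell walls were lower in *nac25*. Alpha-expansins slide wall polymers apart in acid conditions and let cells extend. Of 25 members 10 were tested, and 7 (70.0%) were called lower and 0 higher, against 11.7% of all tested genes for the lower calls. All 10 had a fold below 0, as did 85.3% of all tested genes. The list median was -0.52, which is -0.32 once the shift is taken off. EXPA4 (AT2G39700) had the largest fold, -1.20 with an implied SE of at most 0.30. EXPA2 (AT5G05290), the endosperm expansin, was called at -0.67 with an SE of 0.17 (q = 0.000866). EXPA9 was at -0.62, EXPA1 at -0.59, EXPA10 at -0.56 and both EXPA3 and EXPA20 at -0.48, while EXPA8, EXPA13 and EXPA15 had -0.28, -0.18 and -0.16 without a call. These differences came on top of larger ones from WT in the deposited table. EXPA2 was called lower than WT at -4.21 in *nac1L* and -4.88 in *nac25*. EXPA1 was at -3.47 and -4.06, and EXPA9 at -2.98 and -3.60. EXPA4 had smaller folds over WT, -0.78 and -1.98, also called. After centring within the comparison 0 alpha-expansins were called, with q = 0.192 for EXPA2 and at most 0.055 for EXPA4. EXPA4 was at the deposited floor of p, so its missing call does not place it within the shift. With the 3 comparisons centred together 4 were called lower (EXPA2 at q = 0.034).

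XTH enzymes cut and rejoin xyloglucan, the polymer that ties cellulose fibrils together. Of 16 tested XTH genes 9 (56.2%) were called lower and 1 higher, against 11.7% lower among all tested genes, and the list median of -0.55 was -0.35 relative to the shift. XTH18 (AT4G30280) had a log2 fold of -3.07 with an SE of 1.10 (q = 0.024), its neighbour by locus number XTH24 (AT4G30270) one of -2.15 with an SE of 0.66 (q = 0.00651), and XTH8 one of -1.69. XTH22 (AT5G57560), a gene induced by touch, was at -1.11 with an SE of at most 0.28 (q = 0.000463), and XTH16 was at -0.80. XTH25 (AT5G57550), whose locus number adjoins that of XTH22, was the 1 member called higher, at 0.59 (q = 0.000463). XTH22 and XTH25 also parted against WT: XTH22 was called lower in both mutants, at -1.81 in *nac1L* and -2.92 in *nac25*, while XTH25 was at 0.04 without a call and called higher at 0.63. After centring within the comparison XTH25 was called higher and 0 XTH genes lower. XTH22 was at the deposited floor of p, so its missing call there does not place it within the shift.

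Calls in the other wall lists were fewer. Arabinogalactan proteins are heavily glycosylated proteins of the cell surface. Of 28 tested 10 (35.7%, against 11.7% of all tested genes) were called lower and 1, FLA19 at 0.55, higher, with a median of -0.38 (-0.18 relative to the shift). None was called lower after centring within the comparison, with q = 0.11 for AGP12. AGP12 (AT3G13520) had the largest fold of any called gene with a finite fold, -4.10, with an SE of 1.28 (q = 0.00829). AGP24 was at -1.22, AGP19 at -1.15, AGP1 at -0.88 and AGP15 at -0.84. Of 32 tested genes for pectin methylesterases and their inhibitors, which set the stiffness of the pectin gel, 8 were called lower and 0 higher, 0 were called lower after that centring, and the median of -0.22 lay near the shift. PME25 was at -1.42 (q = 0.00226) and the gene AT3G17225 at -1.43 (q = 0.00599). AT3G17225 was called higher in *nac1L* over WT, at 1.53, and was at 0.10 in *nac25* over WT without a call. Of the 5 tested mannanases, which digest endosperm wall mannan, and of the 7 tested cellulose synthases, 0 were called by Cuffdiff, with medians of -0.09 and -0.15. At an unadjusted p below 0.05 there was 1 mannanase, MAN7, and 0 cellulose synthases.

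**Figure D3:**
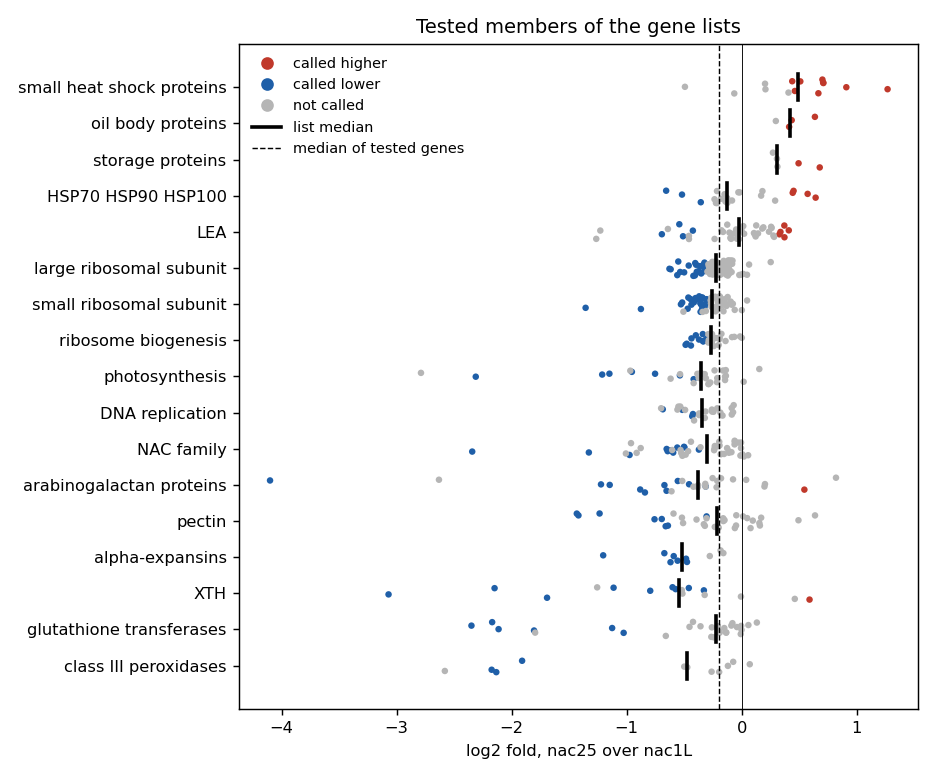
Each row shows the log2 folds of *nac25* over *nac1L* for the tested members of a gene list, coloured by call, with the list median as a black bar. The medians of small heat shock (0.49), oil body (0.42) and storage (0.31) genes lie right of 0. Those of alpha-expansin (-0.52), XTH (-0.55) and peroxidase (-0.47) genes lie left of the dashed median of tested genes (-0.20).

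Among the 12 largest decreases at the smallest q were 3 peroxidase and 3 glutathione transferase genes. Class III peroxidases are secreted enzymes that use hydrogen peroxide to stiffen or loosen walls. Of 74 members 11 were tested and 3 (27.3%, against 11.7% of all tested genes) were called lower: PER62 (AT5G39580) at -2.17, PER52 (AT5G05340) at -2.13 and PER71 (AT5G64120) at -1.91. All 3 had q = 0.000463 and implied SEs of at most 0.54, 0.53 and 0.47. The 8 others were not called, from -2.58 for PER34 to 0.07 for PER12. Glutathione transferases attach glutathione to reactive compounds. Of 28 tested 6 (21.4%) were called lower and 0 higher, the other 22 ranged from -1.80 to 0.13, and the list median was -0.22. The lower ones were GSTU12 (AT1G69920) at -2.35, its neighbour by locus number GSTU11 at -2.17, GSTF7 (AT1G02920) at -2.11, GSTF6 (AT1G02930) at -1.81, GSTU14 at -1.13 and GSTF12 at -1.03. GSTF6 and GSTF7 are close copies whose reads could have been divided between them. After centring within the comparison 3 peroxidases and 3 glutathione transferases were called lower, which are 6 of the 33 centred lower calls.

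Several of these genes lay on opposite sides of WT. PER52 was called higher than WT in *nac1L*, at 0.90, and lower in *nac25*, at -1.23. GSTF7 was called at 1.10 and -1.02, and GSTF6 at 0.92 and -0.89. The legume lectin gene AT3G16530, the largest decrease at the smallest q with a log2 fold of -3.31 between the mutants (SE at most 0.82), was called at 1.67 in *nac1L* and -1.64 in *nac25*. The pirin gene PRN1 had a log2 fold of -1.96 between the mutants and was called at 0.80 and -1.15. AT1G26420, a gene of the berberine bridge enzyme family, was at -1.78 between the mutants and called at 0.92 and -0.85. GSTU12 and PER71 had the same arrangement of signs, but the value in *nac1L* was not called (0.97 and 0.64). PER62 was called lower in both mutants, at -0.85 and -3.03. KCS1 (AT1G01120), an enzyme that elongates fatty acids for waxes, was at -2.48 between the mutants, without a call in *nac1L* over WT (-0.38) and called at -2.86 in *nac25*. The cytosolic ascorbate peroxidase APX1, which removes hydrogen peroxide inside the cell, was lower at -0.80 (q = 0.000463). It was 1 of 6 lower calls (35.3%, against 11.7% of all tested genes) and 0 higher calls among 17 tested antioxidant enzymes. The median of that list, -0.19, lay near the shift, and 0 were called lower after centring within the comparison.

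**Figure D4:**
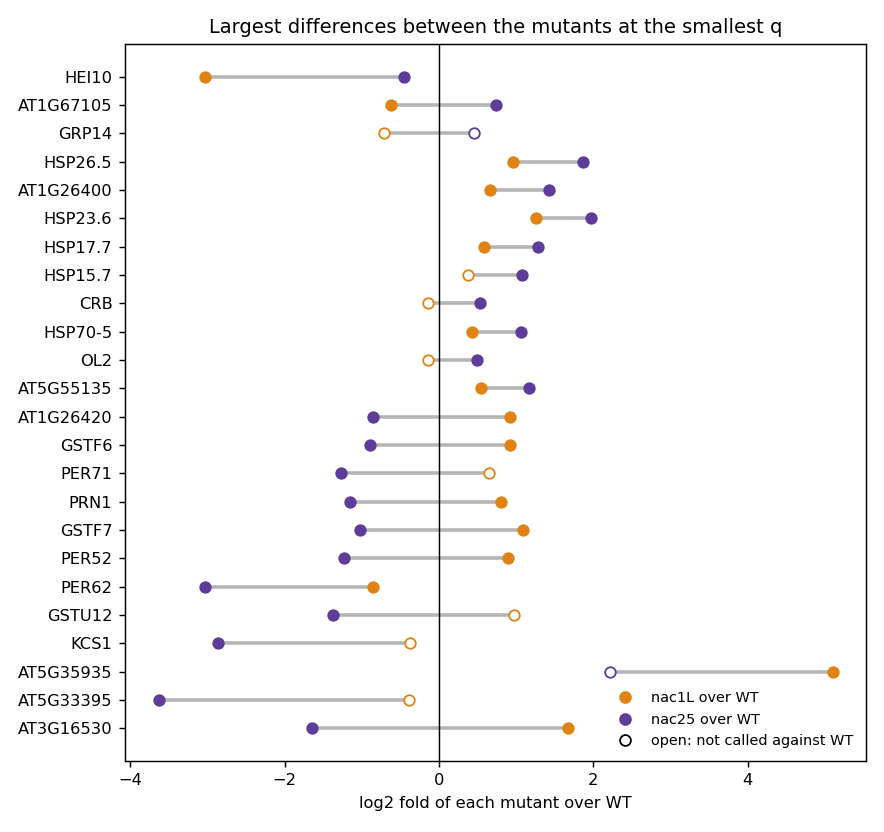
For the 12 largest increases and 12 largest decreases between the mutants at the smallest q, points give the log2 fold of each mutant over WT (orange *nac1L*, purple *nac25*), filled where called. The distance between the points is the fold between the mutants. AT3G16530, PER52, GSTF7, PRN1, GSTF6 and AT1G26420 have filled points right of 0 in *nac1L* and left of 0 in *nac25*, and AT1G67105 the reverse.

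At the other end of the ranking, HEI10 (AT1G53490), which encodes a ligase of meiotic crossover formation, was highest, with a log2 fold of 2.58 (SE at most 0.64, q = 0.000463). Its value over WT was -3.03 in *nac1L* and -0.45 in *nac25*, both called, so it was the value in *nac1L* that stood apart. The noncoding RNA gene AT1G67105 was at 1.37, called lower than WT in *nac1L* at -0.63 and higher in *nac25* at 0.74. GRP14, a glycine-rich protein gene, was at 1.17 without a call against WT in either mutant. AT1G26400, of the berberine bridge enzyme family, was at 0.77 and the uncharacterized AT5G55135 at 0.63. The other 7 of these 12 were heat shock and reserve genes named above. Among called genes above the smallest q, the largest increases were AT4G12450 (a zinc finger protein) at 1.60, the terpenoid synthase gene TPS09 at 1.53, AT1G35830 at 1.47, AT1G79910 at 1.39 and RHA1A at 1.30. TPS09 was called lower than WT in both mutants, at -4.02 in *nac1L* and -2.49 in *nac25*. The largest decreases of that class were AGP12 and XTH18, given above, SOT13, a sulfotransferase gene, at -3.25, the cytochrome P450 gene CYP706A1 at -3.23 and the receptor-like gene AT1G33600 at -3.04. The implied SEs of these 5 ran from 0.90 to 1.28. The remaining decreases at the smallest q were the uncharacterized genes AT5G33395, at -3.24, and AT5G35935, at -2.89. AT5G35935 was called at 5.10 in *nac1L* over WT and was at 2.22 without a test in *nac25*.

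Some transcripts for ribosomes were lower, by small folds close to the shift of all genes. Of 89 tested genes for the large subunit of the cytosolic ribosome 23 (25.8%) were called lower and 0 higher, and of 67 for the small subunit 26 (38.8%) lower and 0 higher, against 11.7% of all tested genes. Of 27 nucleolar factors that assemble ribosomes, 10 (37.0%) were called lower and 0 higher. Their medians of -0.23, -0.26 and -0.27 lay only -0.03, -0.06 and -0.07 from the shift of all tested genes. After centring within the comparison the large subunit had 1 higher call, and the lists had 0 lower calls. The largest called folds were RPS23A at -1.36 (q = 0.00573), RPS8B at -0.88 and RPL35AA at -0.63. NUCL2, a nucleolin gene for the processing of ribosomal RNA, was at -0.49 (q = 0.000866), called higher in *nac1L* over WT at 0.32 and without a call in *nac25* at -0.17.

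Some nuclear photosynthesis genes were lower as well. Of 31 tested 7 (22.6%, against 11.7% of all tested genes) were called lower and 0 higher, with a median of -0.35 (-0.15 relative to the shift). None was called after centring within the comparison. The Rubisco small subunit genes RBCS-2B and RBCS-3B, for the enzyme that fixes carbon dioxide, were at -2.31 (q = 0.017) and -0.95 (q = 0.000463), and reads of these near-identical copies may have been divided. PSBQ1, of photosystem II, was at -1.21 and LHCA1, an antenna protein of photosystem I, at -1.15. Of the plastid genome's own 68 tested genes, 1 was called higher and 1 lower. The lower one was PETA, at -1.14 (q = 0.028), and the higher one was PSAI, which was listed at 0 in *nac1L*. Of 60 tested genes of the mitochondrial genome 2 were called lower, ORF111B at -1.04 and CCB206 at -0.60.

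Cell cycle genes gave few calls, all lower in *nac25*. Of 24 tested DNA replication genes 4 (16.7%, near the 11.7% of all tested genes) were called lower: TSO2, RNR2A and RNR1, subunits of the reductase that makes deoxynucleotides, at -0.69, -0.43 and -0.42, and the helicase subunit MCM2 at -0.52. All 24 had a fold below 0, as did 85.3% of all tested genes, and the median of -0.35 was -0.14 relative to the shift. TSO2 was called higher than WT in *nac1L*, at 0.90, and was not called in *nac25*, at 0.21. CYCB1-1, a cyclin of the entry into mitosis, had the same arrangement: it was at -0.60 between the mutants (q = 0.000463), called at 0.95 in *nac1L* over WT and not called at 0.35 in *nac25*. CYCB1-1 was the 1 call among 10 tested mitotic genes. Of 7 tested D-type cyclins, which start the cycle, 2 were called lower, CYCD4-2 at -2.05 (q = 0.0369) and CYCD3-2 at -0.41. Neither was called with q adjusted over this comparison alone. Among all tested genes 11.7% were called lower. After centring within the comparison 0 replication, D-type cyclin and mitotic genes were called lower. CYCB1-1 was at the deposited floor of p, so its missing call does not place it within the shift. With the 3 comparisons centred together TSO2 and CYCB1-1 were called lower.

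Among hormone genes few passed the test. Of 10 tested gibberellin synthesis genes 1 was called: GA3OX1 (AT1G15550), an enzyme of the last, activating step, was lower at -1.15 with an SE of 0.31 (q = 0.00159). It was called lower than WT at -2.87 in *nac1L* and -4.02 in *nac25*. GA3OX2, for the same step, was at -0.54 without a call (q = 0.055). Of 9 tested receptor and DELLA genes 1, the germination repressor RGL2, was called lower, at -0.38. GASA6, a gibberellin-induced peptide gene, was lower at -0.53 and GASA2 higher at 0.36, among 7 tested. For abscisic acid, 0 of 8 tested synthesis genes, 0 of 3 breakdown genes and 0 of 9 clade A phosphatases, which hold back the pathway, were called in either direction by Cuffdiff, and in each of these lists 0 had an unadjusted p below 0.05. The receptor genes PYR1 and PYL4 were lower, at -0.76 and -0.44, among 12 tested. Of 14 maturation and dormancy regulators FUS3 was called lower, at -0.54 (q = 0.0358), while ABI3, ABI4 and ABI5 had -0.09, -0.30 and -0.05 without a call. Of 20 tested nitrate genes 1 was called lower, the abscisic acid and nitrate transporter gene NPF4.6 at -0.78. Of 19 jasmonate genes 2 were, the repressor genes TIFY11B and TIFY10A at -0.84 and -0.45. Of 17 ethylene genes 2 were, among them the receptor gene ERS1 at -0.68. Of 8 auxin carrier genes 3 were, among them AUX1 and PIN3 at -0.59 and -0.53. These shares were 5.0%, 10.5%, 11.8% and 37.5%, against 11.7% of all tested genes. None of the hormone or nitrate genes named here as lower was called lower after centring within the comparison. The carrier gene PIN4 was higher, at 0.58 (q = 0.0195).

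Within the NAC family, 46 of 101 genes were tested and 11 (23.9%, against 11.7% of all tested genes) were called lower and 0 higher, with a median of -0.30 (-0.10 relative to the shift). None was called lower after centring within the comparison. The gene anac048 was at -2.34 (q = 0.0361), and JUB1, which delays senescence and responds to hydrogen peroxide, was at -1.33 (q = 0.00702). ANAC087, a factor of programmed cell death in the root cap, was at -0.97 (q = 0.0455), NAC029, a senescence factor, at -0.65, and NTL8, a membrane-bound factor that delays germination under salt, at -0.64 (q = 0.00124). JUB1 was at 0.10 in *nac1L* over WT without a call and was called at -1.23 in *nac25*. NTL8 was called lower than WT in both, at -1.40 and -2.04.

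The markers of the seed's tissues were checked in the same table. Of 7 endosperm markers 6 were tested and the remaining 1, EPR1, had too many reads. Called were EXPA2 and EXPA1, both lower and both wall genes given above, and MAN7, CYP707A2, MAN5 and LTI65 were at -0.33, -0.01, -0.07 and 0.03 without a call. The median was -0.20, equal to that of all tested genes. Of 7 seed coat markers 2 were tested, RHM2 at -0.24 and GL2 at -0.09 without a call, and the other 5 had too few reads. Of 9 tested embryo markers 2 were called lower, the lipid transfer protein gene LTP1 at -1.30 and the meristem gene KNAT1 at -0.56, and 1 higher, the epidermal gene PDF1 at 0.37. The patterning genes STM and SCR had -0.17 and -0.02, and the median was -0.24. The part of tissue composition in the other results was not tested.

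At the edges of detection and of the threshold the calls rest on little. Of the called genes 10 were listed at 0 in 1 mutant and have no fold. Listed at 0 in *nac1L* were AT1G06540, AT2G07746, AT5G58595 and PSAI, and in *nac25* AT1G20280, AT2G45161, AT3G01329, AT3G20180, AT3G22436 and AT4G34780. Just inside the threshold were the genes AT5G14770 and ECT3, at -0.39 and -0.30 with q = 0.0499. Just outside it were AT4G12690 and AT4G34730, at -0.51 and -0.39 with q = 0.0501. Of 2186 calls, 200 stood at the smallest q, 24 higher and 176 lower, and these cannot be ranked among themselves by q. All q-values come from the spread that the authors' software estimated over 3 replicates a genotype, and the deposited table gives no value per library, so no standard deviation, depth or detection limit can be stated for any gene.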

How the data were processed

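The submitters' processing notes name the tools Cuffdiff 2.2.1.3, TopHat2 2.1.0 and FastQC 0.11.5. The sources used here do not give the genome build, annotation or normalization. Per the file headers, the authors deposited a log2 fold, a p-value, a q-value and a test status per gene and comparison, with no value per library. The fold was read as the second genotype over the first, and for 20641 of 20642 genes the 3 finite folds added up within 0.001, which does not check the sign. Infinite folds, including 1004 cells with a spreadsheet error, were read as a gene listed at 0. The deposited q-value equals a Benjamini-Hochberg adjustment over 54131 tests of 3 comparisons, within 5.27e-07.

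A gene was called at a deposited q at or below 0.05. The implied SE is the log2 fold divided by the normal quantile of the deposited p, and the centred p uses it. This calculation was tested on simulated data whose p-values had no floor, so that test does not cover genes at the smallest deposited p. Named were the 12 and 12 largest folds at the smallest q, the 5 and 5 largest among other calls, up to 5 called members per list, the 2 genes each side of the threshold, and NAC25, NAC1L and EXPA2, with uncalled list members given for contrast. The lists held 1663 genes, of which 1018 were tested. Members and lists were chosen with earlier results of these data known. A stricter q, another adjustment, a 2-fold minimum and centring were tried. Identifiers (32809 matched) took product names from RefSeq TAIR10.1. Calculations used Python 3.11.15, numpy 2.4.6, pandas 2.3.3, scipy 1.17.1 and matplotlib 3.10.9.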

Additional observations from a re-analysis of the deposited data

Results flagged for a closer look

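Among the 12 largest increases and 12 largest decreases at the smallest q of 0.000463, 7 genes were called in opposite directions against WT. That q was a condition of the choice, so it adds no support for these genes. In the authors' deposited table the log2 fold of *nac25* over *nac1L* was -3.31 for the legume lectin gene AT3G16530, -2.13 for the peroxidase PER52 and -2.11 for the glutathione transferase GSTF7. It was -1.96 for the pirin PRN1, -1.81 for GSTF6 and -1.78 for AT1G26420. These 6 genes were higher than WT in *nac1L* and lower in *nac25*. The noncoding RNA gene AT1G67105 had the reverse arrangement, with a log2 fold of 1.37 between the mutants. Neighbouring copies GSTF6 and GSTF7 may share reads. Both comparisons against WT use the same WT libraries, and the fold between the mutants is the difference of the 2 folds over WT.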

How the results depend on the processing

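No paired analysis was possible because the deposited table holds no value per library, and for the same reason the planned fits with a replicate block and without each replicate were not run. The 108 higher calls became 60 at q at or below 0.01, 64 with adjustment over this comparison alone, 9 at 2-fold or more, 191 after centring and 482 with all 3 comparisons centred and adjusted together, an alternative chosen after seeing the data. The 2078 lower calls became 713, 901, 161, 33 and 276. Of the 108, 100 were among the 191, and all 33 and all 276 centred lower calls were among the 2078. Summed over the lists, without the 4 listed after their values were seen and with genes in several lists counted in each, the 35 higher calls became 25, 45 and 67 under the own adjustment, centring and joint centring, and the 184 lower calls became 108, 6 and 49. The cause of the shift of -0.20 was not tested. Over all genes with a finite fold other than 0 it was also -0.20. After centring 188 of 206 named lower calls and 4 of 51 named higher calls missed the threshold, and with joint centring 139 and 0 did. For lower calls at the smallest p the centred p is an upper bound, so the 188 and 139 can be too high. Before any adjustment 4287 genes had p below 0.05.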

Other observations

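Families of specialised metabolism, listed after their values were seen, showed uneven differences in the authors' deposited table. Berberine bridge enzyme-like genes encode flavin oxidases of the cell wall and of defence metabolism. Of 14 tested 5 (35.7%) were called lower in *nac25* and 2 (14.3%) higher, against 11.7% and 0.609% of all tested genes. After centring within the comparison 2 were called lower and 2 higher. AT1G26380 was at -2.18, AT1G26420 at -1.78, AT1G30700 at -1.58, AT1G26410 at -1.09 and AT4G20860 at -0.65, whereas AT1G26400, whose locus number lies among the first of these, was at 0.77, and AT4G20820 was at 0.33. AT1G26380 was called at 2.09 in *nac1L* over WT and was at -0.08 in *nac25* without a test. Of 14 tested 3-ketoacyl-CoA synthases, which elongate fatty acids for waxes and cutin, 3 (21.4%, against 11.7% of all tested genes) were called lower. These were KCS1 at -2.48, KCS19 at -1.55 and KCS2 at -0.68, and the epidermal CUT1 was at -0.02 without a call. After centring within the comparison 2 synthases were called lower. Of 6 tested genes for indole glucosinolates, defence compounds made from tryptophan, 3 (50.0%, against 11.7% of all tested genes) were called lower. These were CYP79B2, CYP81F2 and CYP83B1, at -1.57, -1.33 and -0.82, and 1 gene of this list was called lower after that centring.

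Partners of the heat shock proteins, also listed after their values were seen, were called higher in 4 of 10 tested cases and lower in 0. Among all tested genes 0.609% were called higher, but the choice of the list makes this a description, not a test. The higher ones were BAG6 at 0.62, HSA32 at 0.48, the co-chaperone HOP3 at 0.47 and AT2G20560 at 0.44. HOP1 and HOP2 were at -0.14 and -0.13 without a call. Further called genes chosen after their values were seen were the cruciferin-like CRD at 0.60, the DNA demethylase ROS1 at 0.41, the terpenoid synthase TPS06 at -1.60, the defence regulator SAG101 at -1.60, the growth-related EXO at -1.57, the cell wall invertase CWINV1 at -1.50 and the factor MYB15 at -1.46. TPS06 was called at 1.42 in *nac1L* over WT and was not called in *nac25*, at -0.19.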
